A study of Mus musculus with 22 samples.

Results

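S40A CREB was compared with wild-type (WT) CREB in mouse cortical neurons after 4 h of virus, across all genes measured. S40A is a form of the transcription factor CREB in which alanine replaces a serine that can carry the sugar O-GlcNAc. The comparison rested on 4 libraries, 2 labelled S40A and 2 labelled WT at that time, out of 22 libraries in the series. Each S40A library was set against the WT library with its own replicate number, and entries for small RNAs (Mir, Snord and Snora) were set aside. A pair of GFP libraries of the same time served as the control without added CREB. The neurons of all these groups were labelled Creb1-/-, of strain C57BL/6, taken from the cortex at embryonic day 16.5 and kept for 7 days in vitro. The CREB form or GFP was carried by a herpes simplex virus (HSV). Every culture had first been silenced for 12 to 16 h with TTX at 1 µM, which blocks sodium channels, and D-AP5 at 100 µM, which blocks NMDA receptors. After the 4 h with virus, every culture was depolarized for 2 h with 55 mM KCl. No group used here was left undepolarized, so the response of a gene to depolarization itself was not measured. The sources used here do not say which part of Creb1 was deleted, which cells the virus entered, or whether replicates came from separate cultures. P-values therefore measure only the spread between these libraries, which may be technical.

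CREB binds the cAMP response element, a palindrome of the letters TGACGTCA, in the promoters of many genes that neuronal activity switches on. Calcium entry during depolarization activates kinases that phosphorylate a different serine of CREB, the one replaced in S133A, and this recruits the acetyltransferases CBP and p300. Another family of coactivators, the CRTC proteins, binds CREB through its DNA-binding end and reaches the nucleus when calcium and cAMP rise together. O-GlcNAc is attached to proteins by the enzyme Ogt and removed by the enzyme that Mgea5 encodes, and on CREB it is known to weaken binding of CRTC. Targets of CREB in neurons include immediate early transcription factors such as Fos and Nr4a1, secreted factors such as Bdnf and Sst, and inhibitors that shut the signal down again, such as Dusp1 and Sik1.

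The 6 libraries of 4 h held an estimated 20.8 to 25.9 M reads each (M for mega). A gene was tested when its mean over the 22 libraries reached 1 FPKM, which left 11706 genes. Libraries fell together by replicate number rather than by virus. Log2 levels correlated at 0.977 to 0.991 between libraries of the same number and at 0.87 to 0.889 between libraries of different numbers. The deposited tables of the 2 numbers also differed in kind: each table of replicate 1 marked 347 entries as low in data, and those of replicate 2 marked 0. Ribosomal protein genes were the plainest case, with a median replicate 2 minus replicate 1 difference of -2.43 on the log2 scale in S40A, -2.41 in WT and -2.44 in GFP. All differences below were therefore taken within a replicate number. Neuronal markers were present in every library, with Gad1 (inhibitory neurons) at 94.1 to 129.9 scaled FPKM and Neurod2 (excitatory neurons) at 55.9 to 91 scaled FPKM. Blood markers were detected mainly in replicate 1, with a summed level of 10.3 scaled FPKM in S40A, 24.9 in WT and 11.9 in GFP, against 1.17 in S40A, 0.985 in WT and 0.433 in GFP of replicate 2. Cldn5, a gene of blood vessel lining, did not exceed 0.203 scaled FPKM. Xist did not exceed 0.151 scaled FPKM and the Y-linked Eif2s3y lay between 32 and 36.4 scaled FPKM in all 6 libraries. Ddx3y, also Y-linked, differed between the numbers. It stood at 15.2 and 61.55 scaled FPKM in S40A, 20.8 and 66.7 in WT and 19.3 and 71.3 in GFP, replicate 1 before replicate 2.

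Creb1 (chromosome 1, 64532804 to 64604548, mm10), the gene that the virus supplied, stood at the same level with both forms. It was at 234 and 268 scaled FPKM in the S40A libraries, at 246 and 251 scaled FPKM in the WT libraries and at 11.8 and 15.7 scaled FPKM in the GFP libraries, replicate 1 before replicate 2. The S40A values lay on either side of the WT values, and all 4 lay far above GFP. The fold difference of S40A over WT was 1.01, with a 95% interval of 0.831 to 1.23 (limma, adjusted p = 1). Unless stated otherwise, every fold and fold bound here and below is a ratio of scaled FPKM + 1, which understates changes of low genes. On the log2 scale S40A exceeded GFP by 4.11 and WT exceeded GFP by 4.09. Reads of the remaining part of the deleted gene can enter the GFP values, so these do not check the genotype. The mutated base was not read in the deposited values, so they check the presence of added CREB and not which form it was.

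Across all genes few differences between S40A and WT repeated in both pairs. Limma called 1 of 11706 genes (0.00854%) at an adjusted p under 0.05. That entry, DQ267100 (chromosome 12, 109649617 to 109649687), spans a short stretch of small RNA that the rule did not set aside. It stood at 405 and 135 scaled FPKM in S40A, was listed at 0 in both WT libraries, and stood at 258 and 149 scaled FPKM in GFP (adjusted p = 0.013). At 8 h its S40A minus WT difference had the opposite sign, at -3.81, and no fold is given for a listed 0. An unadjusted p under 0.05 was found for 161 genes (1.38%), 60 higher in S40A (0.513%) and 101 lower (0.863%). The 95% interval of the S40A over WT fold, on scaled FPKM + 1, lay within 2-fold either way for 98.3% of genes. The added 1 narrows these limits for low genes. In 89.1% of genes the difference stayed within 1.25-fold in both pairs.

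The differences of pair 1 and pair 2, which share no library, did not follow each other across genes. Pearson's r was -0.02 and Spearman's rho 0.05 over the 11706 genes, which share libraries and are not independent replicates. The standard deviation of the differences was 0.29 in pair 1 and 0.23 in pair 2 on the log2 scale. Genes higher in S40A in both pairs numbered 2615 (22.3%), genes lower in both 3330 (28.4%), and 48.4% had opposite signs. These shares are the background against which each gene group below is read. Past 1.5-fold in both pairs there were 6 genes higher (0.0513%) and 2 lower (0.0171%), while 8 genes passed it in opposite directions. A looser bound of 1.25-fold in both pairs held for 39 genes higher (0.333%) and 17 lower (0.145%).

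Transcription factors that depolarization induces stood lower in S40A than in WT. Of 30 on the list, 29 passed the minimum level, and 26 of these were lower in S40A and 3 higher. In both pairs 23 were lower, 79.3% against 28.4% of all genes, and 1, Myc, was higher (0.07 and 0.10 on the log2 scale). The median log2 difference was -0.37, beside -0.01 over all genes. It was -0.62 in pair 1 and -0.12 in pair 2, so the pairs had the same sign and unequal sizes. An unadjusted p under 0.05 was reached by 16 of the 29, each lower in S40A, a share of 55.2% against 0.863% of all genes, and no member passed the adjustment over all genes.

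Fos, a subunit of the AP-1 factor, stood at 181 and 813 scaled FPKM in S40A, against 338 and 915 in WT and 261 and 818 in GFP. Its partner Junb stood at 88.1 and 518 scaled FPKM in S40A, 197 and 606 in WT, and 127 and 565 in GFP. In each number the S40A library was the lowest of the 3 and the WT library the highest, while the replicate 1 libraries lay below the replicate 2 libraries whatever the virus. The log2 difference was -0.53 for Fos (SE 0.20) and -0.69 for Junb (SE 0.22), each with a limma adjusted p of 1.

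Npas4, a factor that neurons make in answer to calcium entry, stood at 63.3 and 308 scaled FPKM in S40A, against 136 and 365 in WT and 97.6 and 308 in GFP. Nr4a1, an orphan nuclear receptor and long-standing CREB target, stood at 88.9 and 551 scaled FPKM in S40A, 201 and 640 in WT and 133.3 and 617 in GFP. Egr1, a zinc finger factor, stood at 88.9 and 337 scaled FPKM in S40A, 179 and 383 in WT, and 137 and 388 in GFP. For each of the 3 the difference was about 1 log2 unit in pair 1 and much smaller in pair 2, and S40A values overlapped WT values across numbers. The S40A over WT fold was 0.631 for Npas4 (95% interval 0.44 to 0.904), 0.618 for Nr4a1 (0.416 to 0.919) and 0.663 for Egr1 (0.469 to 0.937), each with a limma adjusted p of 1.

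Fosb had the widest gap between its 2 pairs among the factors named here, at -1.30 in pair 1 and -0.09 in pair 2 on the log2 scale. Srf, the serum response factor that drives many immediate early genes, had more even pairs, at -0.45 and -0.28. It stood at 32.3 and 50.5 scaled FPKM in S40A and at 44.6 and 61.4 in WT, with GFP at 32.3 and 58. Ier2 stood at 40 and 137 scaled FPKM in S40A, 72.1 and 162 in WT and 39.9 and 157 in GFP. For Srf the deposited Cufflinks intervals of S40A and WT were apart, with S40A lower, in both pairs, as for 1.25% of all genes with usable intervals.

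**Figure D1:**
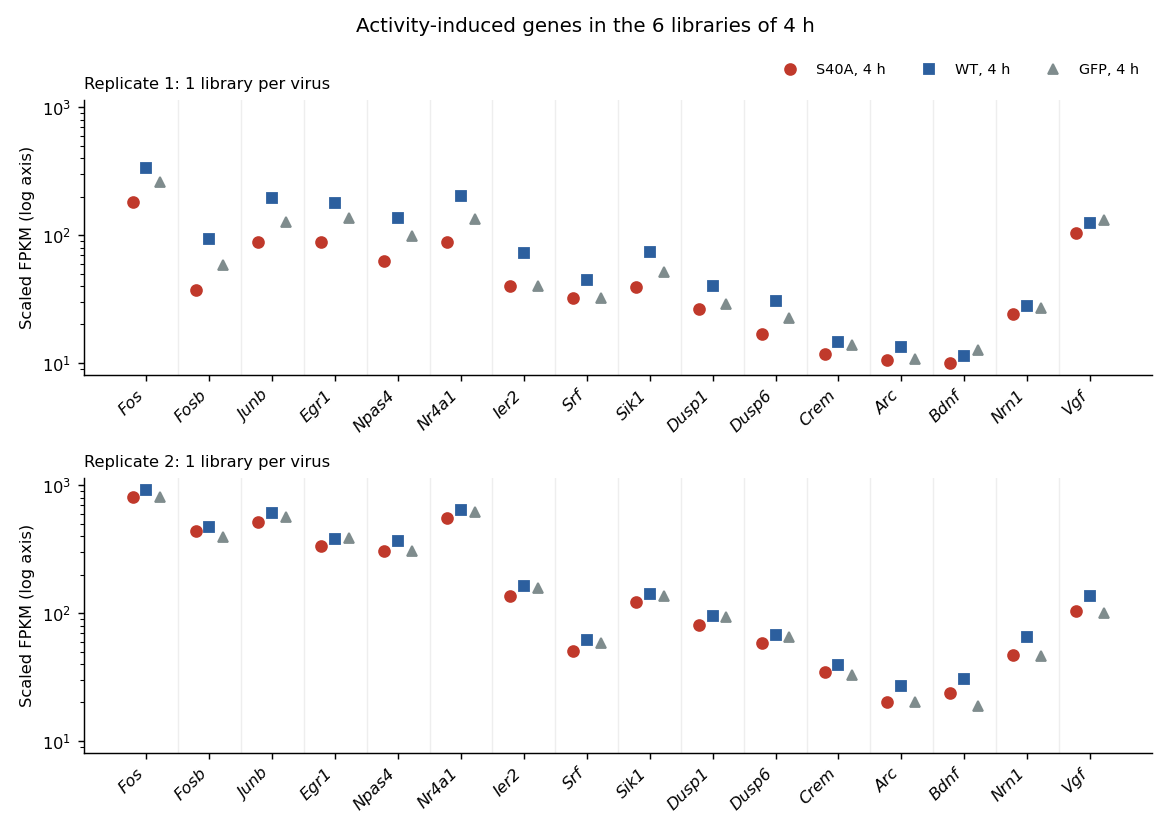
Level of 16 activity-induced genes in each of the 6 libraries of 4 h, in scaled FPKM on a log axis, with replicate 1 above and replicate 2 below. Circles are S40A, squares WT and triangles GFP, with 1 library per point and no error bar. The S40A circle lies below the WT square for all 16 genes in both replicates. Most of the 16 were named for having the largest same-sign differences in both pairs, so the choice in part fixed this order. List members that went the other way, such as Myc, are not shown.

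The GFP libraries place these differences. Measured against GFP, the list had a median of -0.04 in S40A and of 0.32 in WT on the log2 scale; the comparisons share the GFP libraries. In replicate 1 the WT library was the highest of the 3 for 25 of the 29 members (86.2%), against 29.8% of all genes, and in replicate 2 for 23 (79.3%), against 34.3%. The order S40A, GFP, WT from low to high held for 19 members (65.5%) in replicate 1, against 11.8% of all genes. In replicate 2 it held for 7 members (24.1%), against 13%. The summed level of the list was 1064 and 4871 scaled FPKM in S40A, 1886 and 5426 in WT, and 1395 and 4796 in GFP.

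The difference between replicate numbers exceeded that between viruses. The median replicate 2 minus replicate 1 difference of the list was 2.27 in S40A, 1.43 in WT and 1.82 in GFP on the log2 scale, beside -0.02, 0.00 and -0.01 over all genes. Replicate 1 of S40A had the lowest summed level of the 6 libraries. Past 1.5-fold lower in S40A there were 16 members in pair 1 (55.2%, against 0.82% of all genes) and 0 in pair 2 (against 0.214%). The count of members lower in S40A ran from 23 to 28 of 29 when each S40A or WT library was left out in turn. The part of this difference between numbers in the S40A minus WT difference was not tested.

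Effectors that activity induces, such as secreted factors and synaptic proteins, leaned the same way with smaller values. Of 32 measured from a list of 35, 27 were lower in S40A and 5 higher, and 23 were lower in both pairs (71.9%, against 28.4% of all genes). The median was -0.14, with -0.15 in pair 1 and -0.12 in pair 2. With a library left out the count lower ran from 18 to 31 of 32, beside 53.2% of all genes lower with all libraries. It was 19 without replicate 1 of S40A and 18 without replicate 2 of WT. Arc, which removes AMPA receptors from synapses, stood at 10.5 and 20.3 scaled FPKM in S40A, 13.3 and 26.9 in WT, and 10.8 and 20.3 in GFP. In both replicates the S40A value lay next to GFP and the WT value above both. The S40A over WT fold of Arc was 0.783 (95% interval 0.67 to 0.915, limma adjusted p = 1). Its Cufflinks intervals were apart in both pairs, with S40A lower, as for 1.25% of all genes with usable intervals.

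Nrn1, a membrane-anchored protein that promotes neurite growth, stood at 23.9 and 47.2 scaled FPKM in S40A, 27.8 and 65.2 in WT and 27 and 45.8 in GFP. Vgf, a secreted neuropeptide precursor, stood at 103.9 and 104 scaled FPKM in S40A, 126 and 135 in WT and 132 and 101 in GFP. Bdnf, a growth factor for neurons, stood at 10.1 and 23.8 scaled FPKM in S40A, 11.2 and 30.4 in WT, and 12.5 and 18.9 in GFP. For these 3 genes the larger of the pair differences was in replicate 2, and for Vgf the 2 S40A libraries lay below both WT libraries, as they did for 569 of all genes (4.86%). The log2 differences were -0.33 for Nrn1 (SE 0.13), -0.32 for Vgf (SE 0.14) and -0.24 for Bdnf (SE 0.20), each with a limma adjusted p of 1. Nptx2, a secreted pentraxin of synapses, was at -0.12 and Gadd45b, a stress and demethylation factor, at -0.19.

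Genes known as CREB targets were lower in S40A in 32 of 34 measured and higher in 2, beside 53.2% of all genes lower. This list shares members with the 2 before it, which are counted again here, so its counts are not independent of theirs. In both pairs 26 were lower (76.5%, against 28.4% of all genes) and 0 higher. The median was -0.19, with -0.26 in pair 1 and -0.12 in pair 2. An unadjusted p under 0.05 was reached by 10 members (29.4%, against 0.863% of all genes), each lower. Against GFP the list median was -0.04 in S40A and 0.26 in WT. The 4 lists of activity genes (factors, effectors, CREB targets and feedback inhibitors) joined to 95 genes, of which 83 were lower in S40A. Of the 101 genes with an unadjusted p under 0.05 and lower in S40A, 22 were among these 95. That is 23.2% of the 95, against 0.863% of all genes. For 43 of the 95 (45.3%) the WT library was the highest of the 3 viruses in both replicates, against 9.48% of all genes.

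Promoters of these genes were searched for the full element TGACGTCA, which reads the same on both strands. RefSeq windows of mouse build GRCm38.p6, from 250 bases before to 50 after each gene's start, held it in 1.79% of 32851 cases, and 8815 tested genes with a unique symbol had a window. Among the 95 activity genes 10 had it and 60 had a window without it. The sequences are shown for 6 of the 10, to let the element be seen with its surroundings in genes that are described by their S40A and WT values. Each is written 5′ to 3′ on the gene's strand, with the element in capitals.
Sst: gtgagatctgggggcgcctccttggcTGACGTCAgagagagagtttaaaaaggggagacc
Dusp1: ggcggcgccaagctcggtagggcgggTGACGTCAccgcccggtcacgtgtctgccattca
Maff: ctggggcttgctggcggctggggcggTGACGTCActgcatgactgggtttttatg
Btg2: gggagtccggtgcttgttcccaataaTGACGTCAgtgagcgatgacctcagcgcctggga
Plk2: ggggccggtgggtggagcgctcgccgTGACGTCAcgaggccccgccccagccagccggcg
Scg2: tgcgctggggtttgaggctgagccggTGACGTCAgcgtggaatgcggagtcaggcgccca
They lie at chr16:23890859-23890918 on the minus strand for Sst, chr17:26508582-26508641 (minus) for Dusp1 and chr15:79347465-79347519 (plus) for Maff. Those of Btg2, Plk2 and Scg2 lie at chr1:134079288-134079347 (minus), chr13:110394956-110395015 (plus) and chr1:79440061-79440120 (minus).

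Of the 10 activity genes with the element, 9 were lower in S40A in both pairs (90%) and 1, Arl4d, a small GTPase, was at 0.02 and 0.00. Of the 60 with a window without it, 37 were lower in both pairs (61.7%). The medians were -0.19 and -0.13. Over all tested genes with the element, 35.9% of 340 were lower in both pairs (median -0.02), against 27.5% of the 5568 genes whose window holds no TGACG on either strand (median -0.00). The 340 include the 10 activity genes, and outside the 4 activity lists the share was 34.2% of 330 (median -0.015). Of genes with TGACG but without the full element, 29.5% of 2907 were lower in both pairs. The shorter TGACG, which the full element contains, occurs in 20.8% of all windows. Such a match describes letters in a window and does not show binding.

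Among the genes printed above, Dusp1 encodes a phosphatase that switches off MAP kinases. It stood at 26.5 and 81 scaled FPKM in S40A, 40.3 and 94.6 in WT and 28.8 and 93.9 in GFP. Sst, the peptide somatostatin in whose promoter the element was first defined, stood at 239.5 and 192 scaled FPKM in S40A, 287 and 209.6 in WT and 379.7 and 187 in GFP. Dusp1 had S40A lowest and WT highest in both replicates, whereas for Sst the GFP library was highest in replicate 1 and lowest in replicate 2. The log2 differences were -0.40 for Dusp1 (SE 0.13) and -0.19 for Sst (SE 0.19), each with a limma adjusted p of 1. The other 4, named after their values were seen, were at -0.66 (Maff, a small Maf factor), -0.44 (Btg2, an antiproliferative factor), -0.20 (Plk2, a kinase of activated synapses) and -0.16 (Scg2, a granin of secretory vesicles).

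Inhibitors that feed back on the signal were lower in S40A in 22 of 25 measured and higher in 3, with a median of -0.12 (-0.21 in pair 1 and -0.05 in pair 2). In both pairs 13 were lower (52%, against 28.4% of all genes). Sik1, a kinase that keeps CRTC out of the nucleus, stood at 39.3 and 123 scaled FPKM in S40A, 74.2 and 141 in WT and 51.3 and 137 in GFP. Dusp6, a phosphatase specific for ERK, stood at 16.7 and 58.8 scaled FPKM in S40A, 30.4 and 66.9 in WT and 22.5 and 65.6 in GFP. Both genes had S40A lowest and WT highest in each replicate, with the wider gap in replicate 1. Their log2 differences were -0.55 (SE 0.17) and -0.51 (SE 0.16), each with a limma adjusted p of 1, and Rgs4, which shortens G protein signals, was at -0.13.

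The partners of CREB and the enzymes of O-GlcNAc had list medians near 0. Of 18 CREB family members and coactivators measured, 6 were higher in S40A and 12 lower, with a median of -0.06, and 7 were lower in both pairs (38.9%, against 28.4% of all genes). Sik1, whose values stand above, also belongs to this list. Crem, a relative of CREB with activating and repressing products, stood at 11.8 and 34.9 scaled FPKM in S40A, 14.7 and 39.1 in WT and 13.7 and 32.7 in GFP, a log2 difference of -0.23 (SE 0.10). Crtc1, the coactivator most abundant in neurons, was at -0.03 (SE 0.08), Crtc3 at 0.13, Atf1 at -0.04 and Sik3 at -0.14. Of the 14 genes for O-GlcNAc cycling and for its sugar donor, 6 were higher and 8 lower, with a median of -0.02.

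Ogt stood at 31.6 and 55.1 scaled FPKM in S40A, 30.9 and 55.1 in WT and 27.9 and 57.3 in GFP. Mgea5 stood at 61.1 and 71.4 scaled FPKM in S40A, 61.7 and 72.5 in WT and 58.6 and 74.4 in GFP. In each replicate the 3 libraries of these genes lay within a narrow range. The 95% interval of the S40A over WT fold was 0.858 to 1.19 for Ogt and 0.855 to 1.14 for Mgea5. Gfpt1, which makes the first product on the path to the sugar donor, was at -0.08, Slc35a3, a carrier of the donor, at -0.03 and Uap1l1 at 0.16.

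The genes past 1.5-fold in both pairs were mostly of low level and did not belong to the activity lists. Higher in S40A by the naming rule were Cebpzos, Tyrobp, Sox10 and Gsta4, and lower were Crip1 and Spata33; DQ267100 and 1300002E11Rik made up the count. Cebpzos, which overlaps Cebpz on the other strand so that their reads may not be told apart, stood at 4.66 and 7.12 scaled FPKM in S40A, was listed at 0 in both WT libraries, and stood at 5.89 and 0 in GFP. Tyrobp, an adaptor of microglial receptors, stood at 2.61 and 4.37 scaled FPKM in S40A, 0.922 and 1.67 in WT, and 1.74 and 1.06 in GFP. Sox10, the factor that defines oligodendrocyte lineage, stood at 3.18 and 2.11 scaled FPKM in S40A, 1.61 and 0.986 in WT and 1.19 and 0.997 in GFP. For Tyrobp and Sox10 every S40A library lay above every WT and GFP library. Over all genes both S40A libraries lay above both WT libraries for 462 (3.95%).

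The fold of S40A over WT, on scaled FPKM + 1, was 1.58 for Sox10 (95% interval 1.27 to 1.98) and 1.94 for Tyrobp (1.25 to 3.03), each with a limma adjusted p of 1. At these low levels the added 1 makes both folds smaller than the ratios of the scaled FPKM themselves. Gsta4, a glutathione transferase, stood at 6.21 and 3.6 scaled FPKM in S40A, 3.76 and 2.03 in WT and 1.78 and 2.88 in GFP. Crip1, a small LIM protein, stood at 1.35 and 1.17 scaled FPKM in S40A, 3.61 and 2.76 in WT and 1.13 and 3.87 in GFP. Spata33 stood at 0.654 and 0.8 scaled FPKM in S40A, 1.59 and 2.34 in WT and 0.877 and 1.66 in GFP. The S40A values of Crip1 and Spata33 lay below both WT values. GFP lay on either side of S40A for Crip1 and above both S40A values for Spata33. Of genes just short of the bound in 1 pair, Crabp1, a carrier of retinoic acid named after its values were seen, was at -0.66 and -0.58, and Lyz2, a lysozyme of macrophages named in the same way, at 0.50 and 1.20.

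**Figure D2:**
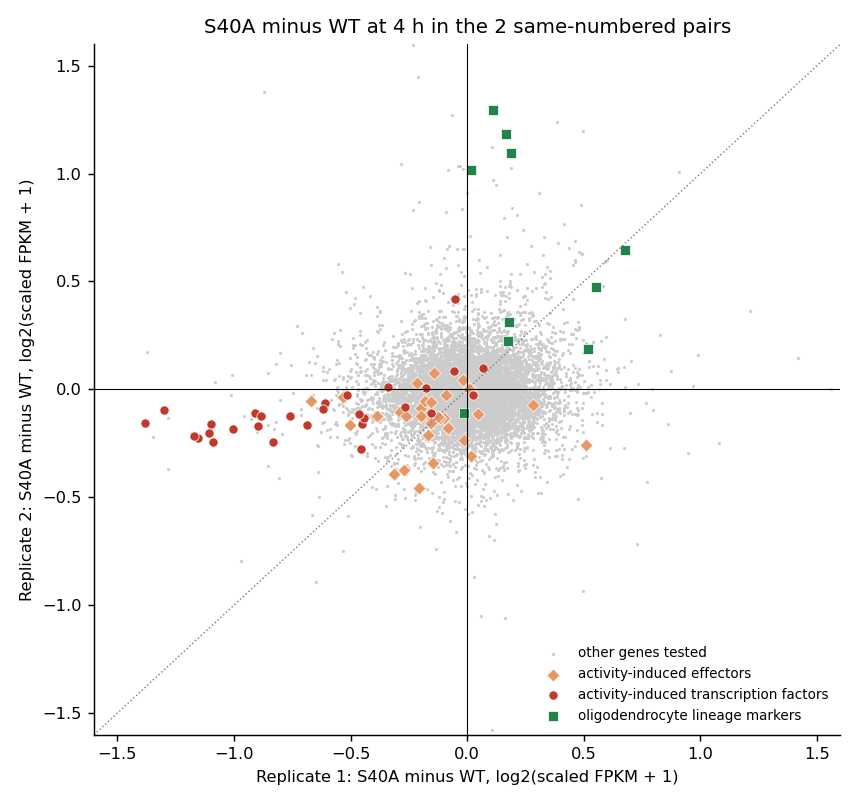
S40A minus WT difference of each tested gene in replicate 1 (horizontal) and replicate 2 (vertical), in log2(scaled FPKM + 1), with 43 genes outside the axes and the dotted line marking equal differences. Red circles (activity-induced transcription factors) stretch to the left with small negative values in replicate 2, orange diamonds (effectors) lie nearer the centre, and green squares (oligodendrocyte lineage) lie at positive values in both replicates for 9 of 10 genes.

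Markers of the oligodendrocyte lineage stood higher in S40A. Of 15 on the list 10 passed the minimum level, and 9 of these were higher in S40A in both pairs (90%, against 22.3% of all genes) while Mog was lower in both. The median was 0.52, with 0.18 in pair 1 and 0.56 in pair 2. An unadjusted p under 0.05 was reached by 5 members (50%, against 0.513% of all genes), each higher, with no member past the adjustment. Pdgfra, the growth factor receptor of oligodendrocyte precursors, stood at 7.85 and 7.1 scaled FPKM in S40A, 5.04 and 4.84 in WT and 2.95 and 4.22 in GFP. Olig1, a lineage factor, stood at 39.9 and 41.5 scaled FPKM in S40A, 27.5 and 36.4 in WT and 25.5 and 23.7 in GFP. For both genes the 2 S40A libraries lay above all WT and GFP libraries. The log2 differences were 0.51 for Pdgfra (SE 0.16) and 0.35 for Olig1 (SE 0.13), each with a limma adjusted p of 1.

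Mbp and Cnp, genes of myelin, differed mainly in replicate 2. Mbp, a myelin protein named after its values were seen, stood at 7.6 and 19 scaled FPKM in S40A, 6.95 and 7.17 in WT, and 7.77 and 8.1 in GFP. Cnp, a myelin enzyme, stood at 5.83 and 9.22 scaled FPKM in S40A, 5 and 3.78 in WT and 5.62 and 5.13 in GFP. Replicate 2 of S40A was the highest of the 6 libraries for both genes, and the other 5 lay well below it. For 7 of the 10 members (70%) S40A was the highest of the 3 viruses in both replicates, against 7.96% of all genes. All 15 listed genes summed to 93.9 and 130 scaled FPKM in S40A, 71.8 and 90 in WT and 63.6 and 73 in GFP. In such bulk RNA, more cells of a type and more RNA per cell cannot be told apart.

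Markers of astrocytes and radial glia were higher in S40A in 11 of 17 measured and lower in 6, beside 46.6% of all genes higher. The median was 0.19 (0.13 in pair 1 and 0.20 in pair 2), and 0 members had an unadjusted p under 0.05. In both pairs 10 were higher (58.8%, against 22.3% of all genes) and 4 lower (23.5%, against 28.4%). Among those lower in both were Hes5, at -1.28 and -0.13, and Vim, at -0.03 and -0.15. Gfap and Apoe were named for their large same-sign differences in both pairs. Gfap, an intermediate filament of astrocytes, stood at 6.12 and 3.79 scaled FPKM in S40A, 4.34 and 1.82 in WT, and 1.41 and 4.11 in GFP. Apoe, a lipid carrier of astrocytes, stood at 89.9 and 53.5 scaled FPKM in S40A, 71.6 and 34.4 in WT, and 31.3 and 72.8 in GFP. S40A exceeded WT in each number, yet S40A of replicate 2 lay below WT of replicate 1, and GFP stood lowest in replicate 1 and highest in replicate 2. The 95% interval of the S40A over WT fold was 0.668 to 3.39 for Gfap and 0.564 to 3.42 for Apoe. The count of higher members was 4 of 17 without replicate 1 of S40A and 1 of 17 without replicate 2 of WT.

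Of 14 microglia markers 4 passed the minimum. All 14 summed to 26.5 and 28.8 scaled FPKM in S40A, 26.7 and 14.9 in WT and 24.4 and 19.1 in GFP. Tyrobp was higher in both pairs and Cd68, a lysosomal protein of macrophages, had opposite signs. So did the list members Ctss (-0.02 in pair 1 and 1.02 in pair 2) and Fcer1g (-0.29 and 1.04). The list median was -0.11 in pair 1 and 1.01 in pair 2. The defining genes Cx3cr1 and Csf1r did not exceed 0.306 and 0.4932 scaled FPKM in any of the 6 libraries. Aif1, another defining gene, ran from 0.273 to 1.96 scaled FPKM, and no defining microglia gene was at 0. Of the neuronal markers, 2 of 16 excitatory markers were higher and 14 lower (median -0.06), beside 53.2% of all genes lower. In both pairs 50% of the excitatory markers were lower, against 28.4% of all genes. Of 16 inhibitory markers 8 were higher and 8 lower (median -0.00). The excitatory marker Nrn1 and the inhibitory marker Sst also belong to the list of activity-induced effectors. Excitatory markers summed to 379 and 459 scaled FPKM in S40A, 380.1 and 504 in WT, and 409 and 432 in GFP. The part of a different share of glial cells in the lower activity genes of S40A was not tested.

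**Figure D3:**
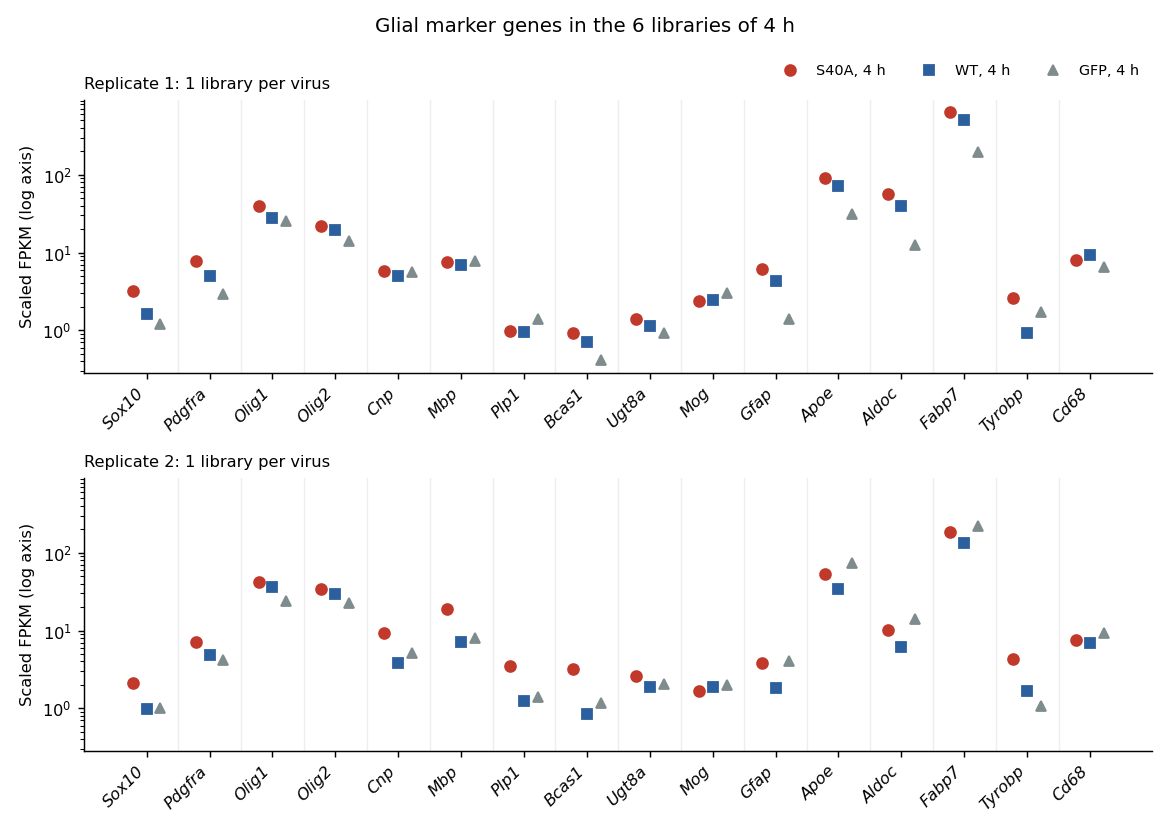
Level of 16 glial marker genes in each of the 6 libraries of 4 h, in scaled FPKM on a log axis, with replicate 1 above and replicate 2 below; circles are S40A, squares WT and triangles GFP, with 1 library per point and no error bar. Sox10, Pdgfra and Olig1 have S40A highest in both replicates. Mbp and Cnp separate S40A mainly in replicate 2, and Gfap, Apoe, Aldoc and Fabp7 have GFP lowest in replicate 1. Astrocyte list members that went the other way, such as Hes5 and Vim, are not shown.

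Other gene groups had medians closer to 0, to be read beside the 53.2% of all genes that were lower in S40A. Genes of glycolysis divided into 7 higher and 15 lower (median -0.03), those of the respiratory chain into 19 and 15 (0.01), cytosolic heat shock genes into 12 and 7 (0.05) and apoptosis genes into 10 and 11 (-0.02). Genes of the unfolded protein and integrated stress responses were lower in 19 of 25 (median -0.08, 48% lower in both pairs against 28.4% of all genes), among them Asns, asparagine synthetase, at -0.17 and Xbp1, a stress factor, at -0.14. Of 83 ribosomal protein genes, 63 were lower in S40A (median -0.07, 44.6% lower in both pairs). Of 32 interferon and antiviral genes 6 passed the minimum, 4 higher and 2 lower (median 0.07).

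Synaptic genes were lower in 25 of 33 entries with a median of -0.04, and the pairs had opposite signs (-0.12 and 0.01). Sv2a, a synaptic vesicle protein, was at 0.21 (SE 0.18), Snap25, of the release machinery, at -0.06 (SE 0.17), and Shank3, a scaffold of excitatory synapses, at -0.24 (SE 0.10). Axon growth genes divided into 12 and 10 (median 0.01). Gap43, a growth cone protein, stood at 557 and 492.9 scaled FPKM in S40A, 556 and 519 in WT and 717 and 546 in GFP, so both CREB forms lay below GFP in each number. Its S40A over WT fold was 0.975 (95% interval 0.76 to 1.25). Sterol and fatty acid genes were lower in 18 of 23, with medians of -0.24 in pair 1 and 0.03 in pair 2. Dividing cell genes divided into 11 and 9 (median 0.01), vascular genes into 3 and 1, and the only blood gene measured was lower.

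The deposited Cufflinks intervals, which hold counting and assignment error within a library, could be used in both pairs for 10012 genes. In each replicate 1 table of 4 h, 1765 to 1855 values lay outside their own interval, against 0 in replicate 2, and such genes were left out. The intervals of the 2 numbers were thus unlike in kind, which bears on every count of intervals apart in both pairs. In both pairs 56 genes had S40A above WT with intervals apart (0.559%) and 125 had S40A below (1.25%); without scaling the counts were 95 and 73. Among those higher were Sox10, Pdgfra, Gfap and Sv2a, and among those lower Srf, Arc, Dusp6, Sik3, Rorb, a factor of cortical layer neurons, and Dlx5, a factor of inhibitory neurons. Dlx5 stood at 33.9 and 58.9 scaled FPKM in S40A, 47.6 and 70.7 in WT, and 41.6 and 65.6 in GFP, with S40A lowest and WT highest in each replicate. Its log2 difference was -0.37 (SE 0.09, limma adjusted p = 1). Of activity-induced transcription factors with usable intervals, 7 of 19 had S40A below WT with intervals apart in both pairs. The same held for 3 of 23 effectors, 0 of 18 CREB targets and 2 of 21 feedback inhibitors. Fos, Fosb, Junb, Egr1, Npas4, Nr4a1, Sik1 and Dusp1 had no usable intervals.

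The same contrast was measured at 8 h in 4 S40A and 4 WT libraries, none of them shared with 4 h. Replicate numbers did not pair these libraries throughout: deviations from the group means of same-numbered S40A and WT libraries correlated at -0.07 and 0.03 for numbers 1 and 2, and at 0.50 and 0.40 for numbers 3 and 4. The Y-linked Ddx3y stood at 0.189, 0.147, 29.1 and 51.6 scaled FPKM in S40A at 8 h and at 31.7, 5.05, 19.6 and 39.9 in WT at 8 h. It differed widely within numbers 1 and 2 and little within numbers 3 and 4. Xist stood at 37.8, 24, 0.186 and 0.0566 scaled FPKM in S40A at 8 h and at 0.0852, 68.5, 0.0973 and 0.0863 in WT at 8 h. Within number 1 Xist was high in S40A and low in WT, and within number 2 it was high in both. Differences by number at 8 h are therefore given as descriptions. Limma called 0 of 11706 genes there (0%), with 857 at an unadjusted p under 0.05 and 248 without the replicate block. The difference between the 4 h and the 8 h contrast was called for 0 genes (0%), with 249 at an unadjusted p under 0.05 and 52 without the block. Across genes the 4 h and 8 h differences had a Pearson r of -0.04 and a Spearman rho of -0.01. Creb1 at 8 h stood between 569 and 2306 scaled FPKM in S40A and between 694 and 2077 in WT.

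The activity lists took no common direction at 8 h. Activity-induced transcription factors had medians of -0.27, -0.89, 0.92 and 0.59 in the 4 same-numbered pairs of 8 h, and CREB targets had -0.13, -0.67, 0.65 and 0.51. The summed level of the factors was 3142, 2094, 2686 and 4210 scaled FPKM in S40A at 8 h, and 4079, 4253, 1309 and 2631 in WT at 8 h. Numbers 1 and 2 were lower in S40A and numbers 3 and 4 higher, and the S40A and WT sums overlapped. All 4 values of the factors exceeded in size the pair 2 median of 4 h, and that of number 2 and that of number 3 also exceeded the pair 1 median. Fos followed this order, at -0.17, -0.89, 0.97 and 0.59, and so did Nr4a1, at -0.55, -1.32, 1.46 and 0.78. The difference between 4 h and 8 h had a limma adjusted p of 1 for both genes.

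The glial lists did not repeat at 8 h either. Oligodendrocyte lineage markers had medians of 0.27, -0.44, 0.02 and -0.20 in the 4 pairs, and astrocyte markers 0.25, 0.87, -0.29 and -0.38. Sox10 was at 0.05 and Tyrobp at -1.49 over the 8 h pairs, the second with a negative value in each of the 4. Synaptic genes, near 0 at 4 h, had a positive median in each 8 h pair, at 0.31, 0.22, 0.15 and 0.15.

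**Figure D4:**
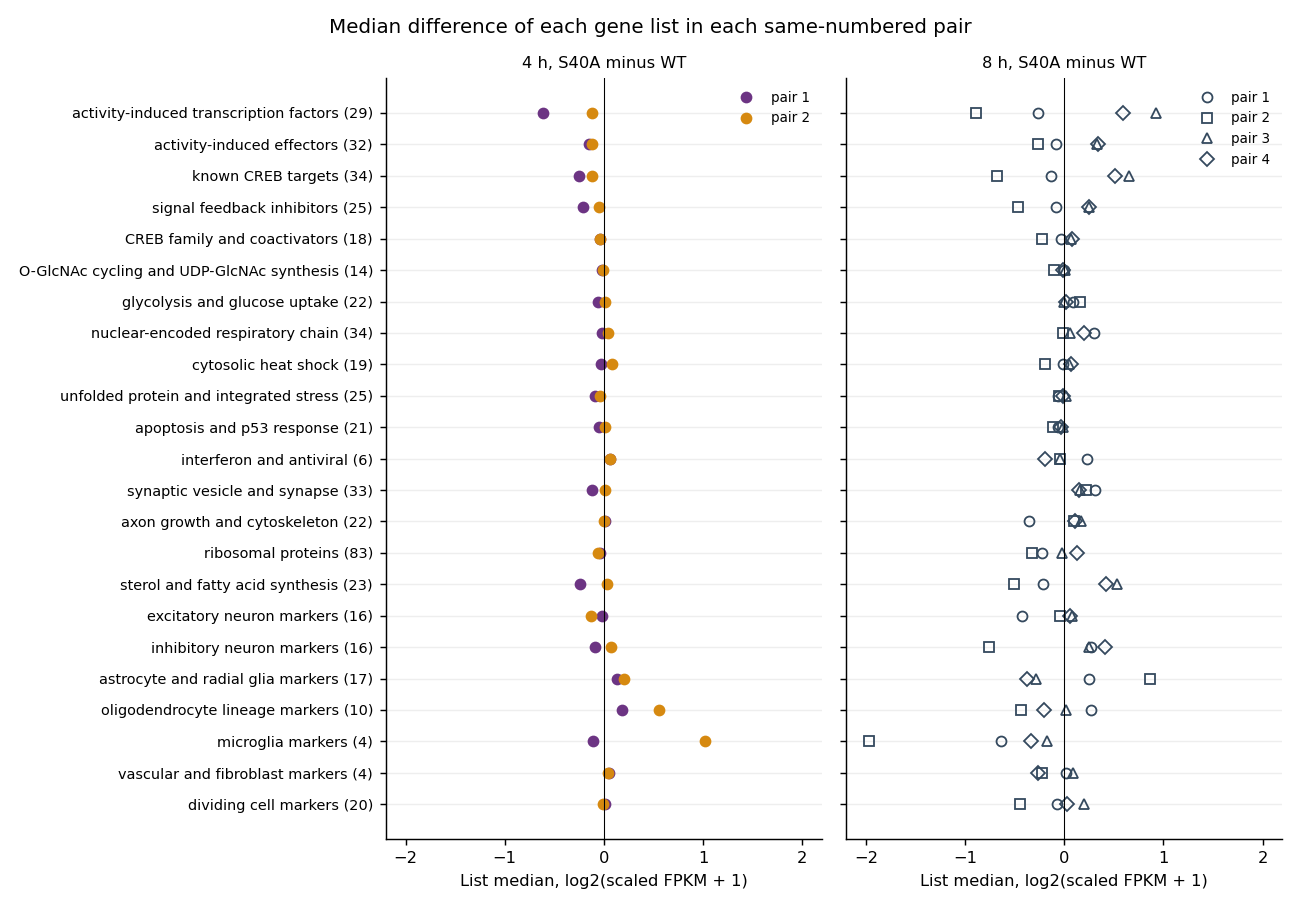
Median S40A minus WT difference of each gene list, in log2(scaled FPKM + 1), in the 2 same-numbered pairs of 4 h (left, filled) and the 4 pairs of 8 h (right, open), with the number of measured genes in brackets. At 4 h the 4 activity lists lie left of 0 in both pairs and the oligodendrocyte list right of 0, and at 8 h the pairs of the activity lists lie on both sides of 0.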

How the data were processed

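Gene-level RNA-seq was analysed from 1 table per library, each with 24490 entries on mm10 positions. Values are FPKM computed by the authors and deposited with Cufflinks intervals and status flags per the file headers. Per the submitters' processing notes CASAVA 1.7, Bowtie 0.12.2 and Cufflinks were used, and both mm8 and mm10 are named as genome builds. The sources used here do not give the handling of strand or of reads matching several places, so overlapping genes and near-identical copies, ribosomal protein genes among them, are uncertain. FPKM are not counts, so no count model was fitted, and depth was estimated from the worth of 1 read in long genes. Here FPKM were scaled by median-of-ratios factors, 1 was added and log2 taken, which understates changes of low genes. Small RNA entries (391 above the minimum) and failed estimates (21) were removed. S40A, WT and GFP of 4 h were fitted with limma 3.58.1 (R 4.3.3, trend on the mean level, Benjamini-Hochberg adjustment over 11706 genes), with the replicate number as a block, leaving 2 residual degrees of freedom before moderation. The 3 groups shared the difference between numbers: deviations from the group means correlated at 0.903 between S40A and WT, 0.84 between S40A and GFP and 0.835 between WT and GFP. The tables of the 2 numbers differ in kind, so these correlations cannot show that same-numbered libraries were matched cultures. A joint fit with 8 h, blocked in the same way within each time, tested the difference between times. Named genes were Creb1, called genes, up to 12 per direction past 1.5-fold in both pairs (assigned names, unique symbols and spans of at least 300 bases), up to 4 per list with the largest smaller-of-pairs difference, and a set panel. The members and lists were chosen with earlier results of these data known. Alternatives covered the block, libraries, trend, pseudocount, minimum, scaling, fold and left-out libraries. Python 3.11.15, pandas 2.3.3 and matplotlib 3.10.9 were used.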

Additional observations from a re-analysis of the deposited data

How the results depend on the processing

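Counts near the thresholds moved with the processing. Without the replicate block the number of limma calls was 0, with 12 genes under an unadjusted p of 0.05. Both S40A libraries passed 1.5-fold from both WT libraries for 2 genes higher and 1 lower. That bound is stricter than the paired one, since each S40A library must pass both WT libraries. The call was also lost in the joint fit with 8 h (0 genes, 95 unadjusted), with a pseudocount of 5 (0, 158) and with no minimum level (0, 617), while S40A and WT alone gave 2. Leaving out each of the 4 libraries gave 6 to 14 calls (8 and 11 without S40A replicates 1 and 2, 6 and 14 without WT replicates 1 and 2), the lone sample being assumed to vary like the other groups. The log2 difference of Creb1 then ran from -0.117 (without WT replicate 2) to 0.144. The counts of 6 higher and 2 lower past 1.5-fold in both pairs became 20 and 10 with a pseudocount of 0.1, 2 and 0 with 5, and 1 and 1 with a minimum of 5 FPKM. They became 2 and 0 past 2-fold, and 4 were lower with no minimum; leaving out a library gives no such count, since it breaks a pair. Without scaling, 95 genes higher and 73 lower had intervals apart, a change of side that bears on any split over all genes. Oligodendrocyte markers were higher in 14 with no minimum, in 4 of 4 with a minimum of 5 FPKM, and in 8 to 10 of 10 with a library left out. Astrocyte markers ran from 1 to 16 of 17, activity-induced factors lower in S40A from 23 to 28 of 29, effectors from 18 to 31 of 32, CREB targets from 25 to 31 of 34 and feedback inhibitors from 17 to 21 of 25. List medians kept their direction in 316 of 344 alternatives and named genes in 1355 of 1415, and no scaling moved the median of all genes by more than 0.0332. The cause of the changes with the processing was not tested. With 2 libraries a group, and depth unknown beyond an estimate, small differences of low genes were not detectable.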
